A study of Mus musculus with 12 samples.

Results

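Chromatin accessibility was examined at 7 genes that encode Runx and Ets transcription factors or their partner: Runx1, Runx2, Runx3, Cbfb, Ets1, Ets2 and Fli1. All regions of the deposited table that overlap 1 of these gene bodies or the 10 kb on either side were taken, without regard to their values, which gave 146 of 63309 regions. The values come from ATAC-seq, in which a transposase inserts sequencing adapters into open chromatin. iNKT1, iNKT2 and iNKT17 cells were sorted from pooled thymi of untreated wild-type C57BL/6 mice or of Hivep3-/- mice backcrossed to C57BL/6, all 8 to 9 weeks old. Each of the 6 groups had 2 libraries, 12 in all. Hivep3-/- denotes a germline loss, so every cell of these mice is affected and not the iNKT cells alone. Which part of the gene was removed is not given. Subsets were sorted on CD122, ICOS, Izumo1r and CD138, then pooled for transposition. A second sort on ICOS and CD138 separated them again, because the reaction quenched the CD122 and Izumo1r signals. Subset libraries of a pool thus shared a transposition reaction, for which the main fit holds no term. Sample titles number single mice while the protocol describes pooled thymi of mice of both sexes, so the p-values measure the spread between libraries, which may be partly technical.

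Invariant natural killer T (iNKT) cells are T lymphocytes that recognise lipids on CD1d and acquire effector programs in the thymus: iNKT1 cells produce interferon-gamma under T-bet, iNKT2 cells produce interleukin-4 under high PLZF, and iNKT17 cells produce interleukin-17. Runx proteins bind DNA through the Runt domain, and CBFb, the product of Cbfb, is the non-DNA-binding partner that stabilises them. Runx1 and Runx3 are each transcribed from a distal (P1) and a proximal (P2) promoter. Ets proteins bind a GGAA core, and Ets1 is known to be needed for the development of NK and NKT cells.

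The regions carry these factors' own recognition letters to different degrees, and 200-base stretches of 9 of them are shown because the results below turn on them: 2 promoters that stayed open in all libraries, 4 introns that differed between subsets and 3 introns that differed between genotypes. All are the plus strand of mm10, 5' to 3', read from the centre of the 500 bp region. Capitals mark matches on either strand to any of 7 motifs: TGTGGT (Runt), GGAAGT (ETS), GGTGTGA (T-box), AGGTCA (nuclear receptor half-site), TGANTCA (AP-1), the kB motif of NF-kB and TCAAAG (TCF).
Runx3 distal promoter, chr4:135120403-135120602: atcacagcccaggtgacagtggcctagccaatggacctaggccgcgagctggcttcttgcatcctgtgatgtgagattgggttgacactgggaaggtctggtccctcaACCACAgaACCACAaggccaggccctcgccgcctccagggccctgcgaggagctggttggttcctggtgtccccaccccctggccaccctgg
Cbfb promoter, chr8:105170410-105170609: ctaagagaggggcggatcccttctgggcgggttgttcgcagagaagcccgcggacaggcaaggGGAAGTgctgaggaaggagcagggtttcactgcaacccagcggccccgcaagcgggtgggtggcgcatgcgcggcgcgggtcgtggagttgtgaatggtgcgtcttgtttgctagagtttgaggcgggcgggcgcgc
Runx1 iNKT17-high intron, chr16:92773750-92773949: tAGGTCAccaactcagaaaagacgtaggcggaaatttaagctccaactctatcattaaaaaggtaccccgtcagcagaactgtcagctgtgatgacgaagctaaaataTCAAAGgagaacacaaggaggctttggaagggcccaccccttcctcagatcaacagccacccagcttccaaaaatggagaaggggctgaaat
Runx3 iNKT17-high intron, chr4:135165983-135166182: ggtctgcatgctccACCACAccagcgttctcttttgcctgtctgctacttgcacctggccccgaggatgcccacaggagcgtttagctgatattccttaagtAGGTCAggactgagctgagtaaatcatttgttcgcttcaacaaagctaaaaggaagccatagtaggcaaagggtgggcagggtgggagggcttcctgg
Ets1 iNKT1-high intron, chr9:32661808-32662007: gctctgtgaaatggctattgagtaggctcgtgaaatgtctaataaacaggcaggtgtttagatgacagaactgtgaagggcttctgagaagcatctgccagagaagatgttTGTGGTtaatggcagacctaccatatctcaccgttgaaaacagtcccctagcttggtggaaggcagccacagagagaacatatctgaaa
Ets2 iNKT2-high intron, chr16:95708171-95708370: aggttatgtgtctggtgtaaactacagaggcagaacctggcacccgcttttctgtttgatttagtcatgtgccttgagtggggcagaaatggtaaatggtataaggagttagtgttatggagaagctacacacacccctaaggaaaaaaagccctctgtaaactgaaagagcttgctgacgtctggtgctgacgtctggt
Runx1 intron lower in Hivep3-/- iNKT2, chr16:92726919-92727118: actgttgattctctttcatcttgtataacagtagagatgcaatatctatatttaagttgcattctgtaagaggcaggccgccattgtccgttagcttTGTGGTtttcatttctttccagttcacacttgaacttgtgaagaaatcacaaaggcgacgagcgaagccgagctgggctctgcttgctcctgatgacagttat
Runx2 intron lower in Hivep3-/- iNKT2, chr17:44557186-44557385: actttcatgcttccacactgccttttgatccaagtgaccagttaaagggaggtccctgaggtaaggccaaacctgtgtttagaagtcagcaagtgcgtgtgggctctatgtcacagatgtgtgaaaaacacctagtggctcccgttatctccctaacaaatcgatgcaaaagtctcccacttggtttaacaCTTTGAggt
Ets1 intron higher in Hivep3-/- iNKT2, chr9:32735080-32735279: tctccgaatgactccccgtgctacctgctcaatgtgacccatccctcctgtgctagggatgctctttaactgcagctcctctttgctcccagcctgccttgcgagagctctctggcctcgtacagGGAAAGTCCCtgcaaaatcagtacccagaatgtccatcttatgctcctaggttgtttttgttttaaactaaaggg

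Over the whole 500 bp, a Runt match was present in 38.4% of the 146 regions and 40.2% of all regions. An ETS match was present in 36.3% and 38.1%, a half-site match in 24.7% and 27.7%, and a TCF match in 37.7% and 30.5%. AP-1 letters were found in 22.6% of the Runx and Ets regions and 15.9% of all regions, T-box letters in 13.7% and 8.57%, and kB letters in 5.48% and 3.78%. These are shares of letter matches, which are no evidence of binding, and the Runx and Ets regions were not richer in Runt or ETS letters than the table as a whole. The Runx3 distal promoter holds 2 Runt matches separated by a pair of bases, and the Runx1 distal promoter region, which is not printed, holds 3. The Ets1 intron that was higher in Hivep3-/- iNKT2 cells holds the 1 kB match among the 37 regions described individually.

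The labelled subsets carried the accessibility of their defining genes. Promoters of all 9 iNKT17 genes on the marker list (among them Il23r and Ccr6) were highest in iNKT17 cells, 5 of 6 iNKT1 promoters (Tbx21, Ifng, Nkg7, Xcl1, Klrd1) in iNKT1 cells and 6 of 8 iNKT2 promoters in iNKT2 cells, in both genotypes. The exceptions were Il2rb on the iNKT1 list, and Icos and Il17rb on the iNKT2 list. None of 5 double-positive thymocyte genes (Rag1, Rag2, Ptcra, Dntt, Cd8b1) had a promoter region in the table. The B cell list had 1 of 4 (Pax5), the myeloid list 1 of 4 (Spi1) and the epithelial list 1 of 4 (Epcam). At Hivep3 itself, with 21 regions, none differed by 3-fold between the genotypes (limma, 0 called of 20 tested for iNKT1, 18 for iNKT2 and 12 for iNKT17). At any fold 2 were higher in Hivep3-/- cells in iNKT1, 1 was higher and 1 lower in iNKT2, and 2 were higher in iNKT17, and the 1 fall was of 0.28 on the log2 scale. The knockout was thus not visible in these values as the loss of a Hivep3 region.

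Values are given as log2 normalized insertions per kilobase. A region was tested when its linear mean reached 5 insertions per kilobase in either compared group, and it was called differentially accessible at an adjusted p under 0.1 (limma, Benjamini-Hochberg over all regions tested) with at least a 3-fold difference. A region could therefore enter a comparison, between subsets or between genotypes, through only the group where it was higher. In sorted bulk populations, a region open in fewer cells and a region less open in each cell cannot be told apart.

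The loci differed in how densely they were covered. Ets1 held 37 regions over a gene of 121.6 kb, Runx1 32 over 224.684 kb, Fli1 26 over 120.658 kb, Runx3 23 over 57.339 kb, Runx2 20 over 318.811 kb, Ets2 5 over 18.977 kb and Cbfb 3 over 47.316 kb. Per 100 kb of the gene and its 10 kb flanks, the number of regions ran from 4.46 at Cbfb to 29.7 at Runx3. Fli1 and Ets1 are neighbours on chromosome 9, separated by 93.359 kb. In C57BL/6 cells 130 of the 146 regions reached 5 insertions per kilobase in iNKT1 cells. The number was 113 for iNKT2 and 128 for iNKT17, and 96 did so in all 6 groups (65.8%, against 65.0% of all regions). Over the subset and genotype comparisons below, 52 of the 146 regions were called at least once (35.6%, against 35.0% of all regions). That was 13 of 23 at Runx3, 11 of 20 at Runx2, 11 of 32 at Runx1, 2 of 5 at Ets2, 10 of 37 at Ets1, 5 of 26 at Fli1 and 0 of 3 at Cbfb.

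Averaged over a locus, the genes separated the subsets in different orders. At Runx1, the linear mean over 32 regions was 45.3 and 45.1 insertions per kilobase in the C57BL/6 iNKT17 libraries, 36.2 and 34.7 in iNKT1 and 35.9 and 33.8 in iNKT2. iNKT17 cells were above both other subsets, whose libraries overlapped. At Runx2 the order was iNKT17 (24.4 and 24.9), iNKT1 (15.4 and 16.3) and iNKT2 (13.3 and 14.1), with no overlap. At Runx3, iNKT1 (32.9 and 34.6) and iNKT17 (31.6 and 34.5) overlapped, and iNKT2 lay below both (26.9 and 28.6).

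Ets1 had its lowest locus mean in iNKT2 cells as well, at 22.6 and 21.2, against 29.7 and 27.8 in iNKT1 and 29.3 and 29.9 in iNKT17. Fli1 was highest in iNKT1 cells (33.1 and 31.3), while iNKT2 (26.3 and 24.0) and iNKT17 (26.5 and 24.5) overlapped. At Ets2 the iNKT2 libraries lay above all others, at 58.8 and 59.1, against 36.3 and 35.6 in iNKT1 and 30.0 and 31.9 in iNKT17. At Cbfb the 6 C57BL/6 libraries ran from 59.6 to 73.3, and those of iNKT2 cells, with the highest mean (67.7 and 73.3), overlapped with those of iNKT1 (60.7 and 69.4). With 2 libraries a group, an exact permutation test of such a mean cannot give a two-sided p below 0.333, so these are descriptions.

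**Figure D1:**
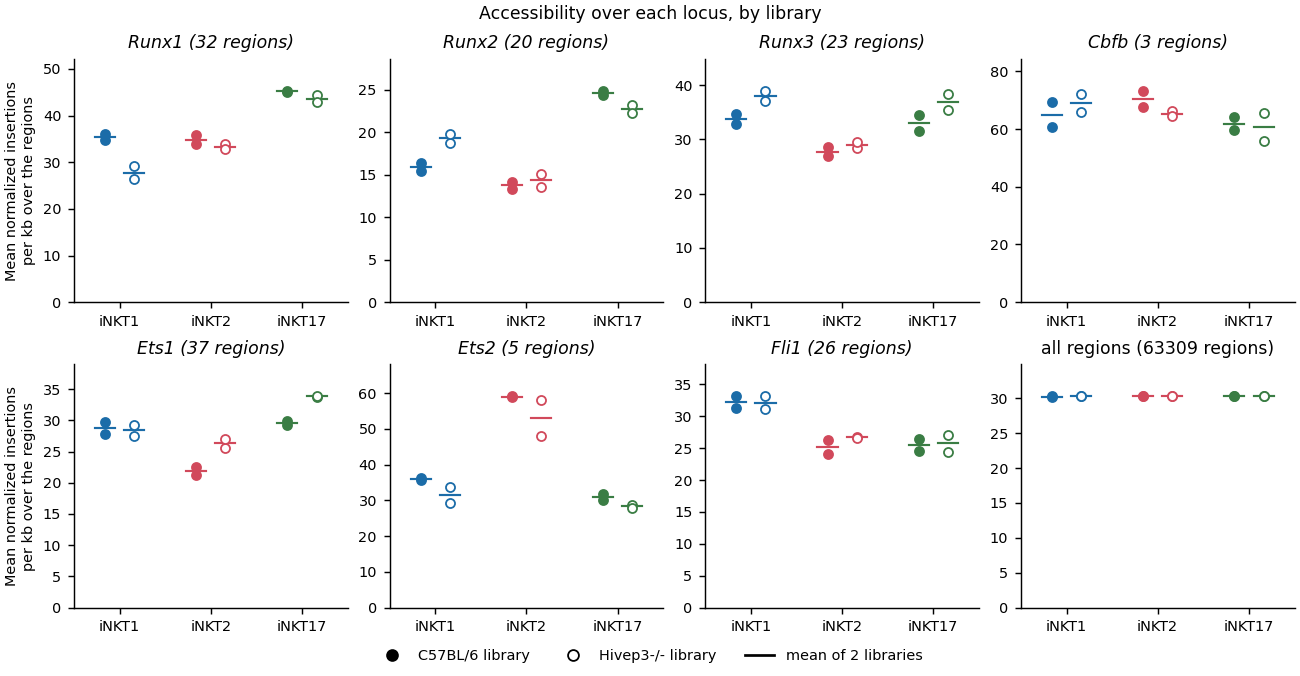
Mean normalized insertions per kilobase over the regions of each locus (y, linear, from 0), for the 3 subsets (x), with 1 point per library, filled for C57BL/6 and open for Hivep3-/-, and a bar at the mean of the 2 libraries. Runx1 and Runx2 are highest in iNKT17 and Ets2 in iNKT2 in both genotypes, and the last panel, all 63309 regions, shows the level that normalization made equal.

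The promoters of the 7 genes were open in every library. The Runx3 distal promoter (chr4:135120253-135120752) had the highest mean of the 146 regions, with 7.78 and 7.85 in C57BL/6 iNKT1, 7.77 and 7.79 in iNKT2 and 7.35 and 7.52 in iNKT17. It was 0.38 lower in iNKT17 than in iNKT1 cells on the log2 scale (SE 0.0654, limma adjusted p = 2.3e-04), which is under the 3-fold threshold. The Runx3 proximal promoter (chr4:135152211-135152710) stood at 5.10 and 5.45 in iNKT1, 4.92 and 5.21 in iNKT2 and 5.46 and 5.61 in iNKT17 cells. The distal promoter of Runx3 was thus the more open of the 2 in all libraries, and iNKT17 cells had both its lowest distal and its highest proximal mean.

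At Runx1, the distal promoter (chr16:92825745-92826244) was at 7.53 and 7.44 in C57BL/6 iNKT1, 7.0 and 6.90 in iNKT2 and 7.14 and 7.13 in iNKT17. It was 0.54 higher in iNKT1 than in iNKT2 (SE 0.0784, limma adjusted p = 8.4e-05). The proximal promoter (chr16:92697179-92697678) read 4.89 and 4.92, 4.70 and 4.99, and 5.71 and 5.55 in the same order, and was 0.72 higher in iNKT17 than in iNKT1 (SE 0.15, limma adjusted p = 8.0e-04). iNKT1 cells therefore had the highest distal and iNKT17 cells the highest proximal value of Runx1, with no overlap between the libraries in either case.

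Runx2, best known as the factor of bone-forming cells, had 3 regions at coding starts, 78.3 to 80.1 kb into the gene, and all 3 were lowest in iNKT2 cells. The 1 at chr17:44734452-44734951 was at 4.40 and 4.51 in iNKT17, 4.11 and 3.80 in iNKT1 and 2.70 and 2.79 in iNKT2, a difference of -1.71 between iNKT2 and iNKT17 (SE 0.19, limma adjusted p = 8.3e-06). In Hivep3-/- cells that difference was -1.05 (SE 0.19, limma adjusted p = 4.9e-04), below 3-fold. The other two overlap Runx2os1, so their openness cannot be assigned to 1 of these genes.

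The start regions of Cbfb and the Ets genes were open in all 12 libraries too. The Cbfb promoter, which Gm3830 also overlaps, lay between 6.48 and 6.87 in all 12 libraries, the Ets1 canonical start (chr9:32695785-32696284) between 6.59 and 7.12, the Ets2 region 0.31 kb into the gene between 6.11 and 6.64, and the Fli1 start between 4.32 and 5.29. The Fli1 promoter was 0.40 higher in iNKT1 than in iNKT2 (SE 0.15, limma adjusted p = 0.040) and 0.38 higher than in iNKT17 (SE 0.15, limma adjusted p = 0.045) in C57BL/6. The most open Fli1 region was not its promoter but an intron 35.3 kb in that Gm38346 also overlaps, at 7.25 and 7.24 in iNKT1, 6.44 and 6.54 in iNKT2 and 6.79 and 6.80 in iNKT17.

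Between subsets, differential accessibility was called in 14 of 132 tested Runx and Ets regions for iNKT1 against iNKT2 in C57BL/6 cells, which is 10.6%, against 16.0% of all tested regions. Of these 12 were higher in iNKT1 (9.09% against 7.33%). For iNKT1 against iNKT17 it was 26 of 144 (18.1% against 20.5%), 12 of them higher in iNKT1 (8.33% against 9.72%). For iNKT2 against iNKT17 it was 26 of 136 (19.1% against 16.2%), 20 of them higher in iNKT17 (14.7% against 8.49%). At any fold, 88, 99 and 95 regions passed, which is 66.7%, 68.8% and 69.9% against 55.2%, 58.4% and 52.3% of all regions. The direction was uneven at iNKT2: 66 of the 88 that passed against iNKT1, and 72 of the 95 that passed against iNKT17, were lower in iNKT2. These are 50.0% and 52.9% of the tested Runx and Ets regions, against 27.3% and 23.3% of all tested regions.

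The Hivep3-/- libraries, which share no library with the C57BL/6 ones, gave 22 of 134 (16.4% against 17.3%), 29 of 142 (20.4% against 19.3%) and 28 of 137 (20.4% against 15.6%) for the same 3 pairs. Of the regions called in C57BL/6, 13 of 14, 21 of 26 and 22 of 26 were called in Hivep3-/- too, all in the same direction. These are 92.9%, 80.8% and 84.6%, against 69.8%, 76.2% and 73.0% of all regions called in C57BL/6. The shared regions made up 13 of 22, 21 of 29 and 22 of 28 of the Hivep3-/- calls. That is 59.1%, 72.4% and 78.6%, against 64.3%, 81.2% and 76.4% over all regions.

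iNKT17 cells had the largest group of regions that were higher than in both other subsets in both genotypes: 10 of 146, against 5 for iNKT1 and 1 for iNKT2. Over all regions these were 4.91%, 3.62% and 1.82%, and over the Runx and Ets regions 6.85%, 3.42% and 0.685%. Runx1, required for the formation of blood stem cells, held 5 of the 10, all in introns between 32.2 and 60.1 kb downstream of the distal start. At chr16:92792857-92793356, the C57BL/6 libraries were at 4.90 and 4.92 in iNKT17, 0.81 and 1.74 in iNKT1 and 0.68 and 1.82 in iNKT2. iNKT17 exceeded iNKT1 by 3.64 (SE 0.38, limma adjusted p = 2.9e-06), and in Hivep3-/- cells, at 4.81 and 5.15 against 0.70 and 0.76, by 4.24 (SE 0.38, limma adjusted p = 8.1e-07). Its linear means in C57BL/6 were 30.2 in iNKT17, 2.54 in iNKT1 and 2.57 in iNKT2, so it entered the tests through iNKT17 alone. The other individually described regions that were higher in iNKT17 or in iNKT1 than in both other subsets in both genotypes likewise entered only through that subset.

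The Runx1 region printed above, chr16:92773600-92774099, stood at 2.86 and 3.35 in C57BL/6 iNKT17 cells, and at -0.11 and -1.01 in iNKT1 and -1.72 and -4.31 in iNKT2. In Hivep3-/- cells it was at 3.22 and 3.56 in iNKT17, -4.05 and -3.12 in iNKT1 and -1.22 and -3.06 in iNKT2. It was closed in both other subsets, where single libraries sat at the lowest value of their column, so the size of the difference (3.66 to 6.97, SE 0.907) is less certain than its direction. A Runx1 region 64.1 kb in was instead low in iNKT1 cells alone, at 2.81 and 2.92, against 5.15 and 4.88 in iNKT2 and 5.68 and 5.76 in iNKT17.

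Runx2 held the largest subset difference of the 146, in a region that lies within the last exon, in the 3' untranslated part, of 2 of its coding transcripts (chr17:44604372-44604871). Its values in C57BL/6 were 4.30 and 4.66 in iNKT17, -0.42 and -2.39 in iNKT1 and -4.05 and -4.31 in iNKT2. The Hivep3-/- values were 4.41 and 4.34, -1.0 and -1.19, and -2.43 and -2.39. iNKT17 was higher than iNKT1 by 5.89 in C57BL/6 (SE 0.65, limma adjusted p = 4.9e-06) and by 5.47 in Hivep3-/- (SE 0.65, limma adjusted p = 1.1e-05). The second C57BL/6 iNKT2 library sat at the lowest value of its column there. Nearer the start, the Runx2 intron at chr17:44608858-44609357 had the opposite preference, with 3.66 and 3.29 in iNKT1 against 1.42 and 1.60 in iNKT2 and 1.56 and 1.04 in iNKT17.

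Runx3, a partner of T-bet in cytotoxic programs, was open in iNKT1 and iNKT17 cells at 1 set of introns and in iNKT17 alone at another. The region 48.6 kb in (chr4:135169028-135169527) was at 5.31 and 5.29 in C57BL/6 iNKT1 and 4.76 and 4.87 in iNKT17, against 1.66 and 1.60 in iNKT2. iNKT1 exceeded iNKT2 by 3.67 (SE 0.16, limma adjusted p = 1.0e-08), and by 3.28 in Hivep3-/- cells. Slightly nearer the start, chr4:135165833-135166332 was at 3.47 and 3.66 in iNKT17, 1.11 and 0.91 in iNKT1 and -0.92 and -2.39 in iNKT2, and a neighbouring region 46.1 kb in had the same order.

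Close to the Runx3 distal promoter, the order turned around. The intron 4.34 kb in was at 2.83 and 2.50 in C57BL/6 iNKT1 and -3.12 and -2.29 in iNKT17, a difference of 5.37 (SE 0.93, limma adjusted p = 2.5e-04). The difference in Hivep3-/- cells was 5.05, with iNKT1 at 4.13 and 4.38 and the iNKT17 libraries far apart, at 0.99 and -2.58. The second of these sat at the lowest value of its column, so the size of that difference is less certain than its direction. Upstream of the gene by 6.02 kb, chr4:135114384-135114883 was in C57BL/6 highest in iNKT2 (5.35 and 5.73), intermediate in iNKT1 (4.20 and 4.72) and lowest in iNKT17 cells (2.86 and 2.94). In Hivep3-/- mice iNKT2 (4.52 and 5.33) and iNKT1 (5.03 and 5.16) overlapped, and iNKT17 was again lowest (1.59 and 1.23).

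**Figure D2:**
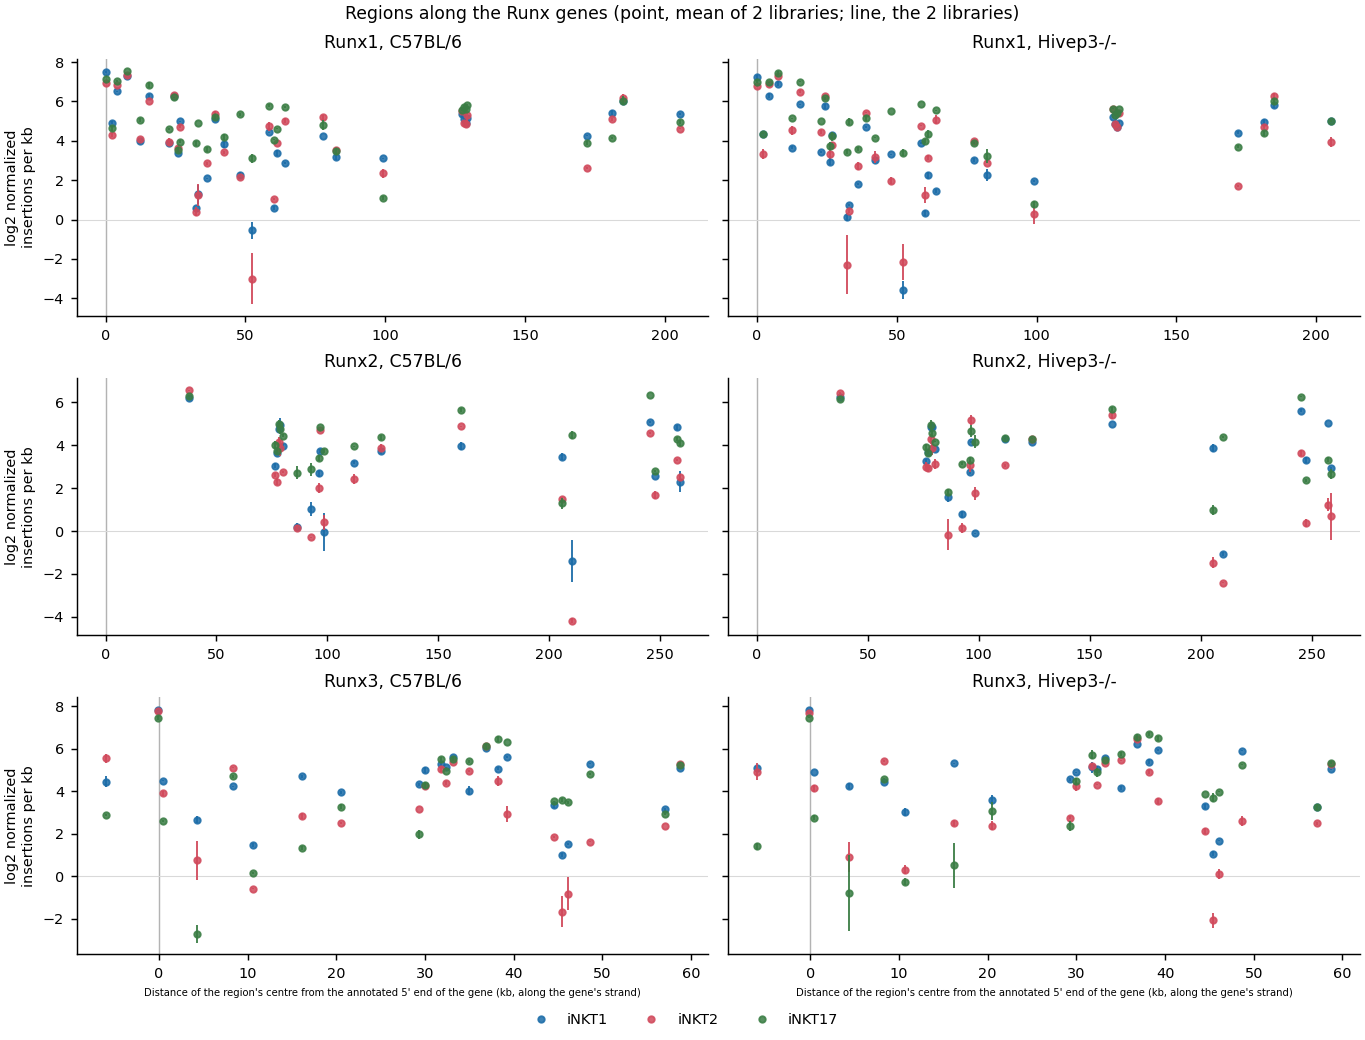
Accessibility of every region (y, log2 normalized insertions per kilobase) along Runx1, Runx2 and Runx3 (x, kilobases from the annotated 5' end, along the strand of the gene) in C57BL/6 (left) and Hivep3-/- (right), with the mean of 2 libraries as a point and the 2 libraries joined by a line. In both genotypes iNKT17 cells (green) stand above the others at 5 Runx1 regions between 32.2 and 60.1 kb, and Runx3 at 48.6 kb is low in iNKT2 (red).

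At Ets1, the 2 regions called higher in iNKT1 than in both other subsets in both genotypes lay in introns upstream of the canonical start. Ets1 chr9:32660080-32660579 was at 3.35 and 3.76 in C57BL/6 iNKT1, 0.36 and 0.84 in iNKT2 and 0.18 and 0.35 in iNKT17. iNKT1 was higher than iNKT17 by 3.29 (SE 0.38, limma adjusted p = 7.0e-06) and, in Hivep3-/- cells, by 1.72 (SE 0.38, limma adjusted p = 0.0017). The printed Ets1 region 25.7 kb in read 3.84 and 3.61 in iNKT1, 0.27 and 1.23 in iNKT2 and 1.96 and 2.30 in iNKT17, with iNKT1 the highest.

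Ets2 held a region that was highest in iNKT2 cells. The intron at chr16:95708021-95708520 was at 5.65 and 5.66 in C57BL/6 iNKT2, 3.50 and 3.37 in iNKT1 and 1.23 and 1.43 in iNKT17. iNKT2 exceeded iNKT1 by 2.22 (SE 0.34, limma adjusted p = 1.4e-04) and iNKT17 by 4.33 (SE 0.34, limma adjusted p = 4.7e-07), and in Hivep3-/- cells by 3.30 and 3.22. The 3 subsets did not overlap in C57BL/6. Of the 5 Ets2 regions, this was the 1 that was called higher in iNKT2 than in both other subsets.

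Fli1, an Ets factor of blood cell and megakaryocyte development, had 5 of 26 regions called in any comparison. The region 20.8 kb in was low in iNKT2 cells, at -0.78 and -1.59, against 2.55 and 2.16 in iNKT1 and 2.29 and 2.67 in iNKT17 (iNKT1 over iNKT2 by 3.54, SE 0.38, limma adjusted p = 6.1e-06). The region 53.3 kb in was high in iNKT1, at 3.29 and 3.14, against 1.20 and 0.51 in iNKT2 and 1.40 and 1.83 in iNKT17. Ets1 held 2 and Fli1 1 region that was called higher in iNKT1 than in both other subsets in both genotypes. These are 5.41% and 3.85% of their regions, against 3.62% of all regions. Runx2 and Runx3, on other chromosomes, held 1 each.

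**Figure D3:**
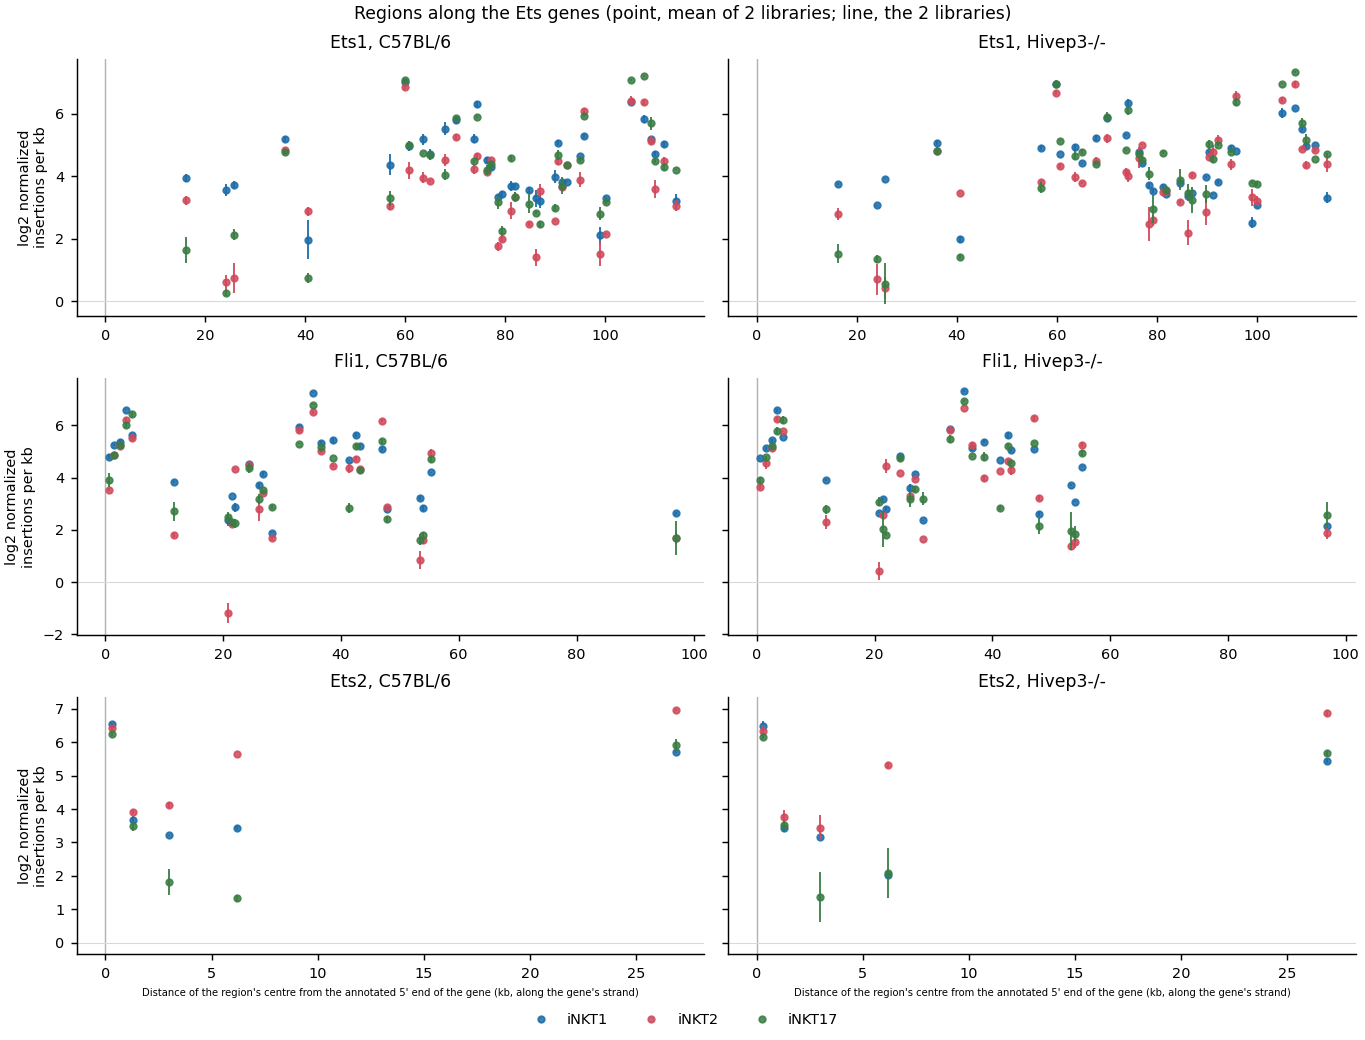
Accessibility of every region (y, log2 normalized insertions per kilobase) along Ets1, Fli1 and Ets2 (x, kilobases from the annotated 5' end, along the strand of the gene) in C57BL/6 (left) and Hivep3-/- (right), with the mean of 2 libraries as a point and the 2 libraries joined by a line. The Ets2 intron at 6.20 kb is highest in iNKT2 (red), at 5.65 and 5.66 in C57BL/6, and the 2 Ets1 regions at 24.1 and 25.7 kb are highest in iNKT1 (blue).

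The main question of the study design was what the loss of Hivep3, a zinc finger protein that binds kB-like sites, changes in each subset. At the 7 loci it changed few regions by 3-fold: 0 of 134 in iNKT1 (against 1.15% of all tested regions), 4 of 121 in iNKT2 (3.31% against 1.68%) and 0 of 131 in iNKT17 (against 0.271%), by limma. Each of the 4 reached the minimum of 5 insertions per kilobase only in the genotype where it was higher. An unadjusted p under 0.05 was reached by 36 regions in iNKT1 and 26 in iNKT17, 0 of them at 3-fold. Without the second C57BL/6 or the second Hivep3-/- iNKT2 library the count in iNKT2 was 1 or 2, and without the first Hivep3-/- iNKT17 library the count in iNKT17 was 1. At any fold, 23 of 134 passed in iNKT1 (17.2% against 9.42%), 36 of 121 in iNKT2 (29.8% against 16.4%) and 8 of 131 in iNKT17 (6.11% against 4.65%), or 20 with the replicate number as a block. In iNKT1 cells 7 rose and 16 fell (5.22% and 11.9% of those tested, against 5.49% and 3.93% of all tested regions), in iNKT2 24 rose and 12 fell (19.8% and 9.92%, against 8.26% and 8.16%), and in iNKT17 5 rose and 3 fell (3.82% and 2.29%, against 2.66% and 1.99%). The changes were split by gene, with Runx1 regions mostly lower and Ets1 regions mostly higher.

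Runx1 was lower in Hivep3-/- iNKT1 cells along the locus. Of 27 tested regions 25 had a lower value, against 28900 of 54145 over all tested regions. The median difference was -0.44, against -0.02 over all tested regions. At an adjusted p under 0.1 (limma), 14 fell and 1 rose, where 3.93% of all tested regions fell and 5.49% rose. Regions of 1 locus come from the same libraries, so their number does not replicate the genotype difference. The falls ran from 0.25 to 1.43 on the log2 scale and lay between the distal promoter and 99.1 kb downstream of it. The locus mean was 29.2 and 26.4 in the Hivep3-/- libraries against 36.2 and 34.7 in C57BL/6, without overlap, or 0.785 of the C57BL/6 mean (no test). The region 64.1 kb in fell most, from 2.81 and 2.92 to 1.33 and 1.54, by 1.43 (SE 0.18, limma adjusted p = 4.2e-04). Its linear means in iNKT1 cells were 7.30 in C57BL/6 and 2.71 in Hivep3-/-, so it entered the test through C57BL/6. Without the first or the second C57BL/6 iNKT1 library 4 or 5 of these Runx1 regions passed, and without the first or the second Hivep3-/- iNKT1 library 7 or 3. iNKT2 marker accessibility moved with the Runx1 change: the summed linear promoter level of the 8 iNKT2 genes was 411 and 398 in C57BL/6 iNKT1 and 342 and 344 in Hivep3-/- iNKT1 libraries, against 551 to 606 in iNKT2 cells. By gene, the log2 mean in iNKT1 cells went from 6.50 to 6.03 at Zbtb16 and from 5.21 to 4.38 at Il4. Gata3 was nearly unchanged (6.22 and 6.21), Ccr7 was higher in Hivep3-/- (5.96 to 6.10), and the remaining genes of the list were lower. The paper reports lower Zbtb16, Il4 and Icos transcripts in Hivep3-/- iNKT cells, so this sum may itself carry an effect of the genotype. None of the 8 was at 0. The iNKT17 list (9 genes) stood at 56.6 and 60.6 against 64.5 and 66.2, and Pax5, the 1 B cell gene with a promoter region, at 7.11 and 8.01 against 12.0 and 11.3, both without overlap. The part of these markers in the result was not tested.

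The fall at Runx1 was in part shared by the other subsets. In iNKT2 cells 7 Runx1 regions fell (by 0.69 to 2.07) and 2 rose. Of the 14 regions that fell in iNKT1 cells, 5 fell in iNKT2 cells too, 1 rose there and 1 fell in iNKT17. A Runx1 intron 77.6 kb in, chosen after its values were seen, fell in all 3 subsets: from 4.22 and 4.22 to 3.10 and 2.94 in iNKT1, from 5.32 and 5.06 to 3.92 and 4.03 in iNKT2, and from 5.08 and 4.57 to 3.94 and 3.84 in iNKT17. The region 64.1 kb in changed more in iNKT1 than in iNKT2 cells (difference of the changes -1.50, SE 0.249, limma adjusted p = 0.0045) and than in iNKT17 cells (-1.27, SE 0.249, limma adjusted p = 0.022).

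The Runx1 region that passed 3-fold in iNKT2 cells was the printed intron at chr16:92726769-92727268, 99.1 kb downstream of the distal start. It was at 2.10 and 2.59 in C57BL/6 iNKT2 and at 0.78 and -0.22 in Hivep3-/- iNKT2 cells, a fall of 2.07 (SE 0.38, limma adjusted p = 0.004). Its linear means in iNKT2 cells were 5.16 in C57BL/6 and 1.29 in Hivep3-/-, so it entered the test through C57BL/6, just above the minimum. In iNKT1 cells it fell from 3.10 and 3.14 to 2.01 and 1.91, by 1.16 (SE 0.38, limma adjusted p = 0.094). There too it entered through C57BL/6, with linear means of 8.69 in C57BL/6 and 3.89 in Hivep3-/-. It was not tested in iNKT17 cells, where the 4 libraries were at 1.18, 0.97, 0.57 and 0.97.

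Ets1 was higher in Hivep3-/- cells of 2 subsets. In iNKT2, 25 of 34 tested regions had a higher value, against 27430 of 55049 over all tested regions (medians 0.47 and 0.00). At an adjusted p under 0.1 (limma), 13 rose and 1 fell, where 8.26% of all tested regions rose and 8.16% fell. In iNKT17, 30 of 33 had a higher value, against 26145 of 54311 over all tested regions (medians 0.35 and -0.01). There 4 rose, all of them among the 13, where 2.66% of all tested regions rose. As at Runx1, the number of regions does not replicate the genotype difference. In iNKT1 the median was 0.03, with 1 rise and 1 fall. Of the 13 regions, 12 lie downstream of the canonical Ets1 start, as do 30 of the 37 Ets1 regions. Without the second C57BL/6 iNKT2 library 6 Ets1 regions rose in iNKT2 cells, and without the second Hivep3-/- iNKT2 library 7. In iNKT17 cells 1 or 0 rose without the first or the second C57BL/6 iNKT17 library, 1 without the second Hivep3-/- one, 2 without the first C57BL/6 iNKT1 library or either Hivep3-/- iNKT1 library, and 10 with the replicate number as a block.

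The printed Ets1 intron at chr9:32734930-32735429, 99.0 kb into the gene, rose by 1.80 in Hivep3-/- iNKT2 cells, from 1.93 and 1.11 to 3.59 and 3.05 (SE 0.32, limma adjusted p = 0.0036). Its linear means in iNKT2 cells were 2.99 in C57BL/6 and 10.2 in Hivep3-/-, so it entered the test through Hivep3-/-. In iNKT17 it was at 2.60 and 3.00 in C57BL/6 and 3.83 and 3.74 in Hivep3-/- cells (difference 0.99, SE 0.32, limma adjusted p = 0.14), and in iNKT1 at 1.82 and 2.39 against 2.34 and 2.69. An Ets1 intron 95.8 kb in, chosen after its values were seen, changed in opposite directions: in iNKT1 it fell from 5.35 and 5.21 to 4.79 and 4.80, and in iNKT2 it rose from 6.19 and 6.00 to 6.42 and 6.73. It fell in iNKT1 by 0.49 (SE 0.13, limma adjusted p = 0.035) and rose by 0.48 in iNKT2 (SE 0.13, limma adjusted p = 0.026), and the changes differed by -0.97 (SE 0.18, limma adjusted p = 0.0072).

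Runx2 lost 2 neighbouring introns in Hivep3-/- iNKT2 cells. Region chr17:44557036-44557535 fell from 3.37 and 3.28 to 1.52 and 0.94, by 2.09 (SE 0.21, limma adjusted p = 1.1e-04). Region chr17:44555851-44556350 fell from 2.67 and 2.35 to 1.79 and -0.41, by 1.82 (SE 0.53, limma adjusted p = 0.043), with the 2 Hivep3-/- libraries far apart. In iNKT2 cells the linear means of the first and second region were 10.0 and 5.74 in C57BL/6. They were 2.40 and 2.11 in Hivep3-/-, so both entered the test through C57BL/6. In iNKT1 cells the first was at 4.96 and 4.73 in C57BL/6 and 5.05 and 5.04 in Hivep3-/- cells, without a detectable difference (0.20, 95% interval -0.25 to 0.64). It also fell in iNKT17 cells, from 4.18 and 4.38 to 3.44 and 3.23, by 0.95 (SE 0.21, limma adjusted p = 0.032). Elsewhere in Runx2, 3 regions rose in Hivep3-/- iNKT1 cells (by 0.55 to 1.13) and 4 in iNKT2 cells (by 0.52 to 1.06), 2 of them in both. The Runx2 intron 245.3 kb in, chosen after its values were seen, rose in iNKT1 from 5.12 and 5.02 to 5.70 and 5.53 and fell in iNKT2 from 4.62 and 4.53 to 3.48 and 3.77. These changes differed by 1.50 (SE 0.174, limma adjusted p = 9.2e-04).

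iNKT1 marker accessibility moved with the Runx2 falls in iNKT2 cells. The summed linear promoter level of the 6 iNKT1 genes stood at 289 and 276 in the iNKT2 libraries of C57BL/6 and at 234 and 239 in those of Hivep3-/- mice, against 641 to 659 in the 4 iNKT1 libraries. Il2rb, the highest of the 6, dominated this sum and was nearly unchanged, at a log2 mean of 7.62 in C57BL/6 and 7.61 in Hivep3-/- iNKT2 cells. Larger falls were seen at Ifng (4.81 to 2.73), Nkg7 (3.75 to 1.72) and Xcl1 (3.99 to 2.97). Tbx21 (4.58 to 4.28) and Klrd1 (1.93 to 1.81) fell less. None of the 6 genes was at 0, and 5 of 6 in C57BL/6 and 4 of 6 in Hivep3-/- iNKT2 cells reached 5 insertions per kilobase. The Runx2 region 257.5 kb in was itself highest in iNKT1 cells. Spi1, the 1 myeloid gene with a promoter region, stood at 27.9 and 28.2 in C57BL/6 and 22 and 24.2 in Hivep3-/- iNKT2 cells, and Pax5 at 21.2 and 22.8 against 21.6 and 25.8. The part of these markers in the iNKT2 results was not tested.

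At Runx3, 2 of 21 tested regions rose and 0 fell in iNKT1 cells at an adjusted p under 0.1 (limma). In iNKT2 cells 4 of 18 rose (by 0.35 to 0.99) and 0 fell, and in iNKT17 cells 1 of 20 rose and 1 fell. Rises outnumbered falls over all tested regions too, at 5.49% against 3.93%, 8.26% against 8.16% and 2.66% against 1.99%. The region 6.02 kb upstream fell in Hivep3-/- iNKT17 cells from 2.86 and 2.94 to 1.59 and 1.23, by 1.49 (SE 0.26, limma adjusted p = 0.012), and was at 5.03 and 5.16 in Hivep3-/- iNKT1 cells against 4.20 and 4.72. Its linear means in iNKT17 cells were 7.45 in C57BL/6 and 2.67 in Hivep3-/-, so it entered the test there through C57BL/6. A Runx3 region 10.6 kb in, chosen after its values were seen, rose in iNKT1 cells from 1.56 and 1.39 to 2.83 and 3.21, by 1.55 (SE 0.42, limma adjusted p = 0.046). It lay below the linear minimum of 5 in C57BL/6 iNKT1 cells and entered the test through Hivep3-/-. The Runx3 region 48.6 kb in rose in iNKT1 cells by 0.60 (SE 0.16, limma adjusted p = 0.044) and in iNKT2 cells by 0.99 (SE 0.16, limma adjusted p = 0.0023). In iNKT2 cells it entered the test through Hivep3-/-, with linear means of 3.10 in C57BL/6 and 6.22 in Hivep3-/-. Ets2 changed at 1 region: the intron highest in iNKT2 fell in Hivep3-/- iNKT1 cells from 3.50 and 3.37 to 2.06 and 1.98, by 1.42 (SE 0.34, limma adjusted p = 0.026), and was at 5.22 and 5.41 in Hivep3-/- iNKT2 cells. Its linear means in iNKT1 cells were 10.8 in C57BL/6 and 4.05 in Hivep3-/-, so it entered the test through C57BL/6. At Fli1 1 region rose (by 0.55) and 1 fell (by 0.45), both in iNKT2 cells. The Cbfb regions differed by 0.06 to 0.13 in iNKT1 by -0.14 to -0.03 in iNKT2 and by -0.60 to 0.23 in iNKT17 cells, and none of the 3 passed in any subset.

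**Figure D4:**
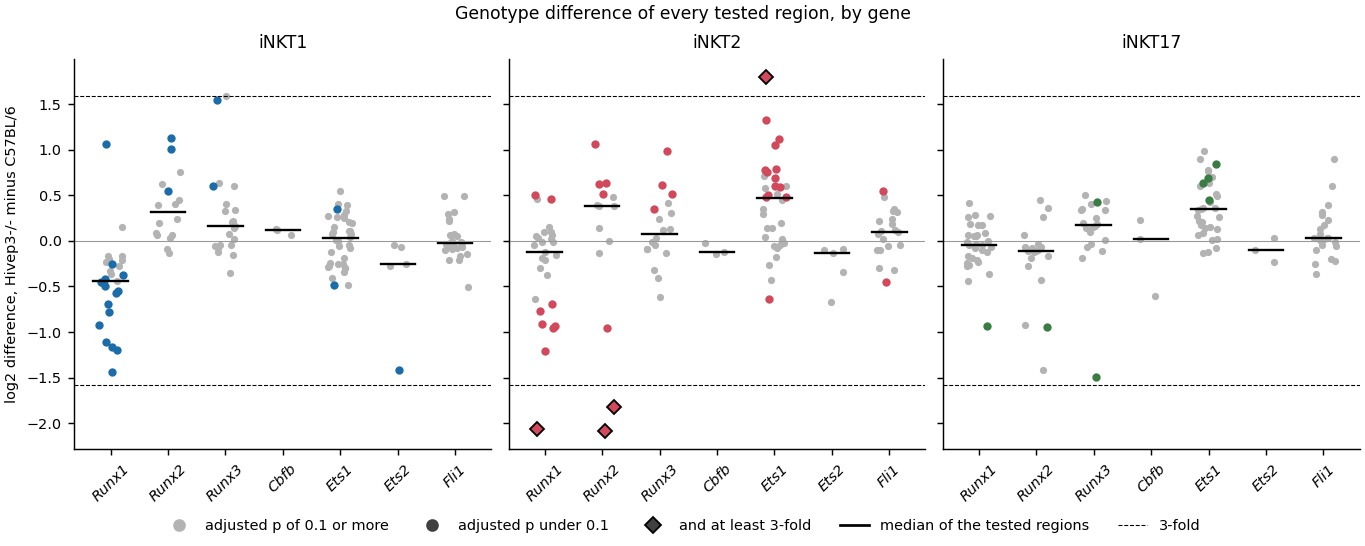
Log2 difference between Hivep3-/- and C57BL/6 (y) of each tested region, by gene (x) and subset (panels); grey points did not pass an adjusted p of 0.1, coloured points did, diamonds were also at least 3-fold (dashed lines), and bars are medians. Runx1 lies mostly below 0 in iNKT1 (median -0.44), Ets1 mostly above 0 in iNKT2 and iNKT17 (medians 0.47 and 0.35), and the 4 diamonds are all in iNKT2.

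A test of the difference itself (an interaction term in limma) asked whether a genotype change differed between subsets. For iNKT1 against iNKT2, 4 of 136 regions passed with at least a 3-fold difference of the changes (2.94%, against 3.06% of all regions), and all 4 were Runx2 introns, 2 of them tested through their level in iNKT1 because both iNKT2 groups lay below the minimum of 5. For iNKT1 against iNKT17, 2 of 145 passed (1.38% against 1.42%), of which the Ets2 region was below that minimum in iNKT17, and for iNKT2 against iNKT17 0 of 139 (against 1.02%), where 4 passed at any fold (2.88% against 3.29%), or 15 with the replicate number as a block. In the last, 27 had an unadjusted p under 0.05, 2 of them at 3-fold. With the replicate number as a block the iNKT1 against iNKT17 count was 4 and the iNKT2 against iNKT17 count 1. The iNKT1 against iNKT2 count was 8 without the second Hivep3-/- iNKT2 library. The iNKT1 against iNKT17 count was 1 without the first C57BL/6 iNKT1, the first C57BL/6 iNKT17 or either Hivep3-/- iNKT1 library, and 4 without either Hivep3-/- iNKT2 library. The shares of the Runx and Ets regions that passed are near those of all regions.

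**Figure D5:**
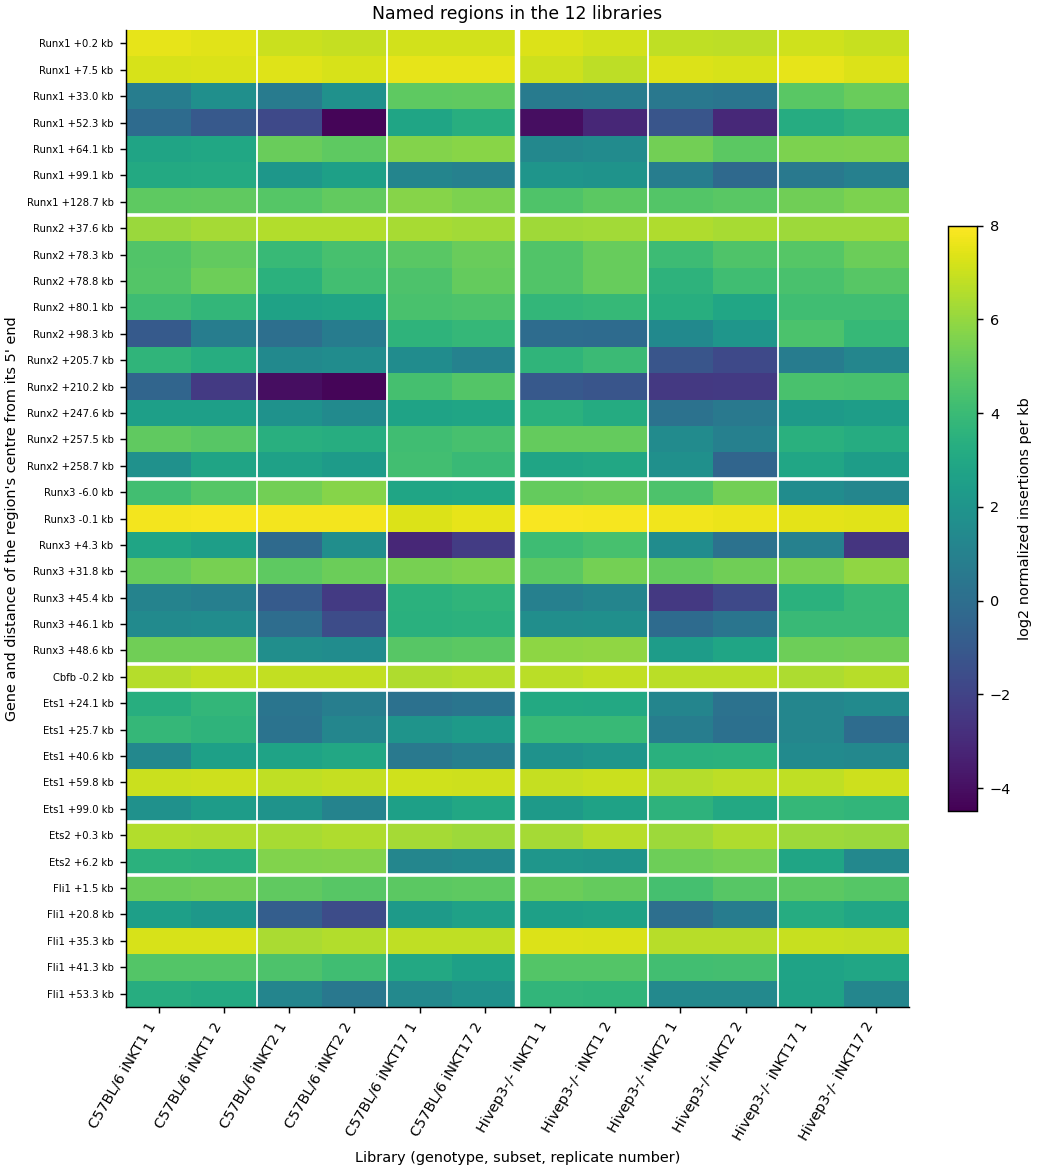
Log2 normalized insertions per kilobase (colour) of the 37 regions described individually (rows, by gene and distance of the centre from the annotated 5' end) in the 12 libraries (columns, by genotype, subset and replicate number). Promoters such as Runx3 at -0.1 kb and Cbfb at -0.2 kb are bright in all columns, and the Runx2 region at 210.2 kb is bright in the 4 iNKT17 columns.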

How the data were processed

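ATAC-seq libraries of 3 sorted thymic iNKT subsets and 2 genotypes (C57BL/6, Hivep3-/-) were used, 2 per group. The authors trimmed reads to a fixed length with Trimmomatic (version 0.39 per the labels), mapped them to mm10 with the ENCODE ATAC-seq pipeline, merged the peaks of all replicates into 500 bp regions with chromVAR, and counted transposase insertions per replicate. They deposited log2 normalized insertions per kilobase (voom with quantile normalization), and no counts, so the depth of each library is unknown and no counting interval is given. Normalization gave every library the same distribution, so a change shared by most regions would not be seen.

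Regions were assigned to gene bodies of GENCODE vM21 with 10 kb on either side. limma (version 3.58.1, R 4.3.3) was fitted to the deposited log2 values of all 12 libraries with 6 group means and an empirical Bayes trend (6 residual degrees of freedom). Benjamini-Hochberg adjustment ran over all regions whose mean on the linear scale reached 5 in 1 or both of the compared groups. Calls needed an adjusted p under 0.1 and 3-fold, the thresholds of the study. The members and gene lists were chosen with earlier results of these data known. The procedure was tested on simulated data. Figures used Python 3.11.15 and matplotlib 3.10.9.

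Regions were named by rule: those at starts of coding transcripts of their own gene, those called between genotypes, per gene and C57BL/6 subset comparison the called region with the largest difference (leaving out regions where both libraries of a group sit at their lowest value), per gene the region with the highest mean, per gene up to 2 regions higher in 1 subset than in both others in both genotypes, and those whose genotype change differed between subsets. Exceptions are stated where they occur. The locus most like Ets1 is not reported here.

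Same-numbered libraries deviated together: the correlation of their deviations from the group means was 0.113 to 0.171 over the 9 group pairs. Within a genotype the shared number is read as 1 pool of thymi split by subset, from the sort protocol; between genotypes the pairing rests on these values only. Alternatives were no filter, a linear mean of 5 over all 12 libraries, pseudocounts of 1 and 5, renewed quantile normalization, a fit of the compared groups only, replicate blocks, and leaving out each library in turn.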

Additional observations from a re-analysis of the deposited data

Results flagged for a closer look

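The change between genotypes differed between subsets, by a limma interaction term with at least a 3-fold difference, at 6 regions. At 4 Runx2 introns the change in iNKT1 exceeded that in iNKT2 cells. The region at chr17:44555851-44556350 had a difference of changes of 2.44 (SE 0.751, limma adjusted p = 0.0735), and that at chr17:44557036-44557535 of 2.28 (SE 0.292, limma adjusted p = 0.00121). At chr17:44566977-44567476 it was 2.05 (SE 0.384, limma adjusted p = 0.00806): Hivep3-/- iNKT1 libraries were at 3.47 and 3.17 against 2.58 and 2.56 in C57BL/6, and Hivep3-/- iNKT2 libraries at 0.20 and 0.55 against 1.86 and 1.48. At chr17:44608858-44609357 it was 3.37 (SE 0.501, limma adjusted p = 0.00259), with iNKT2 libraries at -1.22 and -1.72 in Hivep3-/- against 1.42 and 1.60 in C57BL/6, and iNKT1 libraries at 3.68 and 4.04 against 3.66 and 3.29. The last 2 of these Runx2 regions were below the minimum of 5 on the linear scale in both iNKT2 groups, so they were not tested between genotypes within iNKT2 and entered the test of the difference through iNKT1, where they were high.

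Between iNKT1 and iNKT17 cells, the changes differed at the Runx3 region upstream of the distal promoter, by 2.13 (SE 0.364, limma adjusted p = 0.0109). At the Ets2 intron 6.20 kb in, they differed by -2.19 (SE 0.487, limma adjusted p = 0.0399): Hivep3-/- iNKT17 libraries were far apart, at 2.84 and 1.35, against 1.23 and 1.43 in C57BL/6. Its linear means in iNKT17 cells, 2.52 and 4.87, were under the minimum of 5, so it was not tested between genotypes there and entered through iNKT1. Groups of 2 libraries were not searched for single outlying libraries.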

How the results depend on the processing

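No result changed direction under any alternative run. A pseudocount of 5, which shrinks folds by construction, left 0 regions called between genotypes in iNKT2 and 0 for the iNKT1 against iNKT2 and iNKT1 against iNKT17 tests of the difference, 4, 7 and 11 for iNKT1 against iNKT2, iNKT1 against iNKT17 and iNKT2 against iNKT17 in C57BL/6, and 13, 12 and 13 in Hivep3-/- cells. A pseudocount of 1 gave 1 genotype call in iNKT2 and 4 for the iNKT1 against iNKT17 difference. Without a filter, more regions are tested: 1 was called between genotypes in iNKT1, 7 in iNKT2, and 1 for the iNKT2 against iNKT17 difference, which a filter on the mean of all 12 libraries also gave as 1. The compared groups alone gave 1 genotype call in iNKT1 and 4 for the iNKT1 against iNKT17 difference. A replicate block gave 4 for iNKT1 against iNKT17 and 1 for iNKT2 against iNKT17, and a block by pool 5 and 1. All 155 calls of Runx and Ets regions held under the replicate block, as did the 151 that could be run with a block by pool. At any fold the replicate block raised the genotype count in iNKT17 from 8 to 20, of which Ets1 rises from 4 to 10, and the tests of the difference for iNKT1 against iNKT17 from 11 to 22 and for iNKT2 against iNKT17 from 4 to 15. Beyond the values given above, the cause of these changes was not tested.

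Leaving out 1 library at a time gave 1 to 4 genotype calls in iNKT2, 0 to 0 in iNKT1 and 0 to 1 in iNKT17. Subset calls ranged from 14 to 17, 25 to 27 and 26 to 30 in C57BL/6, and from 21 to 22, 26 to 31 and 24 to 29 in Hivep3-/- cells. The tests of the difference ranged from 3 to 8, 1 to 4 and 0 to 1. A group left with 1 library was assumed to vary like the others. Of 155 calls of Runx and Ets regions, 147 to 154 held without 1 library. Alternatives for the any-fold counts at Runx1 and Ets1 were chosen after seeing the data; a pseudocount of 5 gave 8 rises at Ets1 in iNKT17 cells.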

Other observations

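Other genes of these families were listed by name. Among 150 regions of 23 other ETS family genes, 1 of 128 tested regions rose by 3-fold in Hivep3-/- iNKT1 cells, 1 of 135 fell in iNKT2 and 0 of 137 changed in iNKT17 cells (limma), against 1.15%, 1.68% and 0.271% of all tested regions in either direction. Among 81 regions of 14 Runx partner and corepressor genes, such as the Tle family, the counts were 0 of 76, 1 of 74 (a rise) and 0 of 73. At any fold, 8 rose and 4 fell, 12 rose and 9 fell, and 4 rose and 0 fell at the ETS genes in iNKT1, iNKT2 and iNKT17, and 5 rose and 0 fell, 7 rose and 3 fell, and 2 rose and 2 fell at the Runx partners. Over all tested regions 5.49% rose and 3.93% fell, 8.26% rose and 8.16% fell, and 2.66% rose and 1.99% fell. Between C57BL/6 iNKT1 and iNKT17 cells, 9 ETS regions were higher in iNKT1 and 24 in iNKT17, of 144 tested, where 9.72% and 10.8% of all tested regions were. Of the 24, 18 lay at Etv6 alone, which held 23 of the 150 regions, 3 at Elf1 and 2 at Elk3.

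The loci whose profile over the 12 libraries was most like that of each gene (Ets1 left out) were found among 9990 loci by the root mean square difference of centred log2 sums. They were Flywch2 for Runx1 (0.0774), Plekhm1 for Runx2 (0.0582), Ccdc88c for Runx3 (0.0335), Inpp5e for Cbfb (0.0506), Nlrx1 for Ets2 (0.104) and Pigk for Fli1 (0.0396). The median over all loci was 0.185 to 0.426 on the same scale.

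Nuclear receptor half-site letters (AGGTCA) were present in 6 of the 10 Runx regions that were higher in iNKT17 than in both other subsets in both genotypes, and in 53.5% of all 3110 such regions. The half-site letters were equally present in 3 of the 5 regions that were higher in iNKT1 (30.2% of all 2291 such regions). Runt letters were present in 4 of these 5, and in 63.4% of the 2291. Of the 10 regions higher in iNKT17, 3 held Runt letters, against 50.2% of the 3110.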
